A study of Mus musculus with 3 samples.

Results

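The transcripts of 5 Fc receptor genes, Fcgr1, Fcgr3, Fcgr4, Fcgr2b and Fcer1g, were followed through the immune and tissue cells of bone marrow, blood and an injured tendon of the mouse. The members were taken by their gene symbols, and all 5 were found among the 27998 genes listed in each of the 3 libraries.

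Fcγ receptors bind the constant part of IgG on opsonized particles and immune complexes, and in myeloid cells they start phagocytosis, degranulation, and cytokine release. Fcgr1 encodes FcγRI, the receptor with high affinity for IgG. Fcgr3 and Fcgr4 encode FcγRIII and FcγRIV, which bind IgG in complexes. These activating receptors are held and coupled to Syk by the γ chain encoded by Fcer1g, a small adaptor with an activation motif that also serves FcεRI and several C-type lectins. Fcgr2b encodes FcγRIIb, an inhibitory receptor whose cytoplasmic motif recruits the lipid phosphatase SHIP1.

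All cells came from mice 10 weeks old that had received a burn on the back together with a cut through the whole Achilles tendon, a model of trauma-induced heterotopic ossification, and were taken on day 3 after surgery. The study's methods name male C57BL/6J mice. Marrow was flushed from the femurs, blood was passed over a Ficoll gradient to obtain mononucleated cells, red cells of both were lysed, and tissue from the tendon injury was taken apart by enzymatic digestion. The cells were not sorted, each site gave 1 droplet-based library (10x Genomics), and every site carries the same injury. There was no uninjured library among the samples used here, and none of the sources used here gives the number of mice behind a library. The tissue, its preparation and its library therefore cannot be told apart in any comparison between sites.

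The files held 1855, 2241 and 5629 cell barcodes for marrow, blood and tendon, with medians of 22836, 8316 and 11082 unique molecular identifiers (UMIs, each a counted transcript) per cell. After filtering, 1813, 2146 and 4780 cells were kept, and the pairs of libraries shared between 1 and 6 barcodes. Clusters were made in each library by itself, with the 5 members and their signalling partners left out of the clustering. They were named from marker genes, none of them a member, although the members stayed among the genes ranked for naming. This gave 26 groups of at least 20 cells with a name in 1 library. Orders of levels are over these named groups, and unnamed clusters are described apart from them. Levels are given in CPM, the group's UMIs of a gene scaled to 1000000 UMIs in all. With 1 library per site there is no replicate and no test, so the intervals are exact Poisson or binomial 95% intervals of counting error alone, and spread between mice is not in them. A member was called different where the whole interval of a ratio lay past 2-fold, and the share of all tested genes called by the same rule is given beside it.

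Positions below follow GENCODE M21 on GRCm38, the assembly also known as mm10. Fcgr2b (ENSMUSG00000026656, chr1:170958617-170976547, minus strand), Fcgr4 (ENSMUSG00000059089, chr1:171018920-171029761, plus strand), Fcgr3 (ENSMUSG00000059498, chr1:171051174-171064935, minus strand) and Fcer1g (ENSMUSG00000058715, chr1:171229572-171234365, minus strand) lie in that order on chromosome 1. Gaps of 42.4, 21.4 and 165 kb separate these neighbours. Fcgr1 (ENSMUSG00000015947, chr3:96282909-96293969, minus strand) lies alone on chromosome 3. The antisense gene Gm38204 overlaps Fcgr2b and is counted as a gene of its own.

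The promoters of Fcgr1, Fcgr4 and Fcgr2b are shown because Fcgr4 was highest in blood nonclassical monocyte-like cells and Fcgr1 and Fcgr2b, an activating and the inhibitory receptor, in tendon macrophage-like cells. Each run is the 150 bases before the RefSeq start (GRCm38.p6), 5′ to 3′ on the gene's strand, at chr3:96293970-96294119 (minus) for Fcgr1, chr1:171018776-171018925 (plus) for Fcgr4 and chr1:170976072-170976221 (minus) for Fcgr2b. Capitals mark AGGAAG on either strand, the core of sites bound by ETS factors such as PU.1, and TTCNNNGAA, the pattern of the gamma-activated site bound by STAT factors.
Fcgr1: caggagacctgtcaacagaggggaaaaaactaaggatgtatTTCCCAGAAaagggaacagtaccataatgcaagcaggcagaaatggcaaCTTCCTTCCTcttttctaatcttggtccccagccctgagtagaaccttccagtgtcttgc
Fcgr4: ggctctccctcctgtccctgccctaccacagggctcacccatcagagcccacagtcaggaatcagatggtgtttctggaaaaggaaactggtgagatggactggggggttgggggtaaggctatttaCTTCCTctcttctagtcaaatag
Fcgr2b: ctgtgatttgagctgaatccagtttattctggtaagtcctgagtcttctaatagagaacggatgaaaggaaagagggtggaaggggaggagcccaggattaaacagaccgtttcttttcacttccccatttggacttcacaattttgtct

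AGGAAG was present in 2 overlapping copies in the Fcgr1 run, which begin 60 and 56 bases before the start, and once in the Fcgr4 run, 23 bases before it. The Fcgr2b run held neither pattern in these letters, although it holds the shorter GGAA. The windows of Fcgr2b and Fcgr3 lie inside these genes as placed above, where the GENCODE genes begin further upstream than the RefSeq starts. Of the 5 members, 4 carried AGGAAG in such a window of at least 1 RefSeq promoter. Counted by promoter this was 5 of 6, where the 2 of Fcgr3 overlap, against 19.7% of 32851 mouse promoters. TTCNNNGAA was found in 1 of the 6 promoters, that of Fcgr1, at 109 bases before the start, against 4.09% of promoters. The matches describe the letters and are not evidence of binding.

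Fcgr1 transcripts were concentrated in the monocyte-like and macrophage-like cells of the tendon, as the plot of levels by class shows. The 1389 tendon macrophage-like cells had 289 CPM (95% interval, 281 to 296), and the 861 tendon classical monocyte-like cells had 282 (272 to 294), so the first 2 groups in the order overlap. With median-of-ratios size factors the tendon classical monocyte-like cells were highest. Blood classical monocyte-like cells followed at 113 (104 to 122), below both tendon groups and above all other named groups. Of the unnamed clusters, 185 tendon cells led by Acp5 had 130.0 and 188 marrow cells led by Saa3 had 104. Tendon dendritic cell-like cells (40.2, 31.2 to 51.0), marrow classical monocyte-like cells (31.1, 26.8 to 35.9) and blood macrophage-like cells (23.0, 14.8 to 34.3) formed a lower step of neighbours that overlap, and blood immature neutrophil-like cells (9.26, from 9 UMIs in 2 of 54 cells) reached into it. Mature neutrophil-like cells were nearly without the transcript. In the tendon they had 3.09 CPM from 7 UMIs, in marrow 0.19 from 1 UMI, and in blood 0 of 333 cells had a UMI, which allows up to 1.09 CPM. No Fcgr1 UMI was found in the 669 blood T cell-like or 336 blood B cell-like cells either, which allows up to 0.509 and 1.75 CPM.

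**Figure D1:**
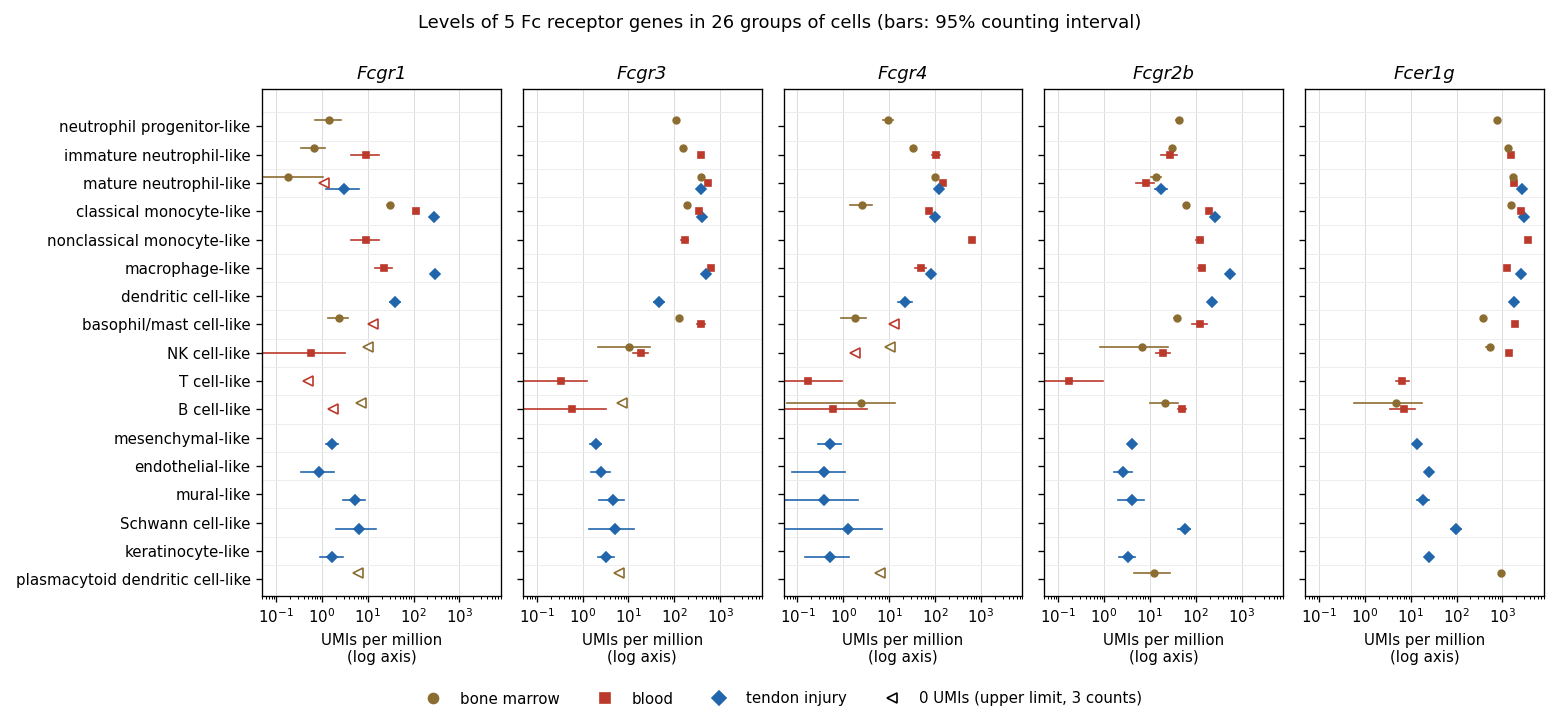
CPM (log axis) of each of the 5 Fc receptor genes in the 26 named groups of cells, with 95% counting intervals as bars and color and shape for the library. Fcgr1 is highest in tendon macrophage-like and monocyte-like cells (289 and 282), Fcgr4 in blood nonclassical monocyte-like cells (636), and Fcer1g spans nearly all myeloid and NK cell-like groups. Open triangles stand for groups with 0 UMIs at the limit that 3 counts would give.

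Fcgr3 was the most evenly shared receptor. Its level was 630 CPM (582 to 680) in 34 blood macrophage-like cells led by Prg4, Cd5l and Timd4, 530.3 (503 to 558) in blood mature neutrophil-like cells and 482 (473 to 492) in tendon macrophage-like cells. Next came 6 groups whose neighbours overlap, from tendon classical monocyte-like cells at 394 (382 to 407) through blood basophil/mast cell-like (388), marrow mature neutrophil-like (387), blood immature neutrophil-like (377) and tendon mature neutrophil-like cells (375) to blood classical monocyte-like cells at 351 (336 to 366). Marrow classical monocyte-like cells (186) and blood nonclassical monocyte-like cells (168) were lower and overlapped each other. In tendon dendritic cell-like cells the level was 46.7 (37.0 to 58.2), and in blood NK cell-like cells 18.7 (12.8 to 26.4). Tendon mesenchymal-like cells, which should lack the receptor, had 1.98 (1.48 to 2.58). The first place rests on the 34 blood macrophage-like cells. Blood was drawn by cardiac puncture, and whether these cells were circulating was not tested. That place also depends on the scaling. Blood mature neutrophil-like cells were highest when UMIs were scaled without the 20 most abundant genes, and also with median-of-ratios size factors.

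Fcgr4 had the steepest order among the members. Blood nonclassical monocyte-like cells, the patrolling subset marked by Ace, Treml4 and Cd300e, had 636 CPM (587 to 688), and 93.1% of these 116 cells had a UMI. The next level, in blood mature neutrophil-like cells, was 147 (133 to 162), and tendon mature neutrophil-like cells overlapped it at 125 (110.5 to 140.0). Neighbours overlapped from there through blood immature neutrophil-like (104) and tendon classical monocyte-like (99.3) to marrow mature neutrophil-like cells (99.1). Tendon macrophage-like cells had 80.1 (76.2 to 84.3) and blood classical monocyte-like cells 74.2 (67.3 to 81.5), which overlap. Marrow classical monocyte-like cells had 2.50 (1.40 to 4.12) from 15 UMIs in 152 cells. No UMI was found in 214 blood NK cell-like cells, which allows up to 1.75 CPM.

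Fcgr2b was highest in tendon macrophage-like cells at 556 CPM (546 to 567). Tendon classical monocyte-like cells (263, 253 to 274) and tendon dendritic cell-like cells (231, 209 to 255) overlapped each other. Among the named groups, blood classical monocyte-like cells came next at 192 (181 to 204). Blood macrophage-like (135), basophil/mast cell-like (124) and nonclassical monocyte-like cells (122) could not be ordered. Fcgr2b was also the single receptor transcript at more than trace level in blood B cell-like cells, at 50.2 (40.2 to 62.0), where FcγRIIb is the known Fcγ receptor. Mature neutrophil-like cells had 17.7 (12.6 to 24.1) in the tendon, 13.8 (10.8 to 17.3) in marrow and 8.02 (5.03 to 12.2) in blood. Among blood T cell-like cells 1 UMI was counted, or 0.17 CPM.

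Fcer1g was the most abundant member in every myeloid group. Blood nonclassical monocyte-like cells had 3554 CPM (3436 to 3674), tendon classical monocyte-like cells 2947 (2912 to 2982) and tendon mature neutrophil-like cells 2618 (2551 to 2685). Blood classical monocyte-like cells (2505) and tendon macrophage-like cells (2499) overlapped. Blood basophil/mast cell-like (1865), tendon dendritic cell-like (1822), blood mature neutrophil-like (1800.1) and marrow mature neutrophil-like cells (1734) followed. With median-of-ratios size factors the highest level was in tendon mature neutrophil-like cells. Outside the myeloid classes the γ chain was high in blood NK cell-like cells (1413, 1357 to 1470) and in marrow plasmacytoid dendritic cell-like cells (933, 848 to 1023). Blood B cell-like (7.01) and T cell-like cells (6.61) had few UMIs. In the tissue classes of the tendon the level was 13.7 in mesenchymal-like, 18.7 in mural-like, 24.7 in endothelial-like, 25.5 in keratinocyte-like and 97.8 in Schwann cell-like cells (77.2 to 122).

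Most of the receptor UMIs of the tendon lay in mononuclear phagocytes. Macrophage-like cells made up 29.1% of the tendon cells and held 62.5% of the Fcgr1, 72.7% of the Fcgr2b, 63.9% of the Fcgr3, 53.7% of the Fcgr4 and 52.2% of the Fcer1g UMIs, while classical monocyte-like cells, 18.0% of the cells, held 29.8%, 16.8%, 25.4%, 32.4% and 29.98% in the same order. In blood, classical monocyte-like cells were 14.6% of the cells and held 92.7% of the Fcgr1 and 68.8% of the Fcgr2b UMIs. Nonclassical monocyte-like cells were 5.41% of the blood cells and held 38.5% of the Fcgr4 UMIs.

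Shares of cells were compared after each cell was thinned to 1000 UMIs. Of 1386 thinned tendon macrophage-like cells, 22.1% had an Fcgr1 UMI (19.9 to 24.4), 38.5% an Fcgr2b UMI (35.9 to 41.1), 35.7% an Fcgr3 UMI (33.2 to 38.3), 8.01% an Fcgr4 UMI (6.63 to 9.56) and 86.4% an Fcer1g UMI (84.4 to 88.1). Without thinning, at a median of 13326 UMIs, the shares were 83.0%, 93.5%, 92.5%, 50.7% and 99.7%. Tendon mesenchymal-like cells, at a median of 34270 UMIs, had the same transcripts in 0.138%, 0.415%, 0% (upper bound 0.509), 0.138% and 1.24% of 723 thinned cells, and in 2.90%, 6.78%, 4.70%, 1.66% and 23.8% before thinning. Of 545 thinned tendon mature neutrophil-like cells (median before thinning, 3480 UMIs), 0.367% had an Fcgr1 UMI (0.0445 to 1.32), an interval that holds the mesenchymal-like share, and 27.0% had an Fcgr3 UMI (23.3 to 30.9). Unthinned, 1.06% and 63.9% of 565 cells had one.

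Which receptors set mononuclear phagocytes apart from neutrophils was examined within each library. In the tendon, 2 of the 5 members were called higher in macrophage-like than in mature neutrophil-like cells, where the rule called 34.8% of all genes higher and 7.83% lower (12.8% and 16.8% with median-of-ratios size factors). Fcgr1 was 93.3-fold higher (log2 ratio 6.54, 5.50 to 7.86) and Fcgr2b 31.5-fold higher (4.98, 4.53 to 5.46). The median over all genes was itself 1.29 on this scale, and it stood above the values for Fcgr3 (0.36, 0.26 to 0.47), Fcer1g (−0.07, −0.11 to −0.03) and Fcgr4 (−0.64, −0.82 to −0.45). With those size factors the ratio for Fcgr3 turned to −0.75, and those for Fcer1g (−1.18) and Fcgr4 (−1.75) were called lower. Under a finer clustering, in which 160 macrophage-like cells joined the neutrophil name, the ratios of Fcgr1 and Fcgr2b shrank to 1.05 and 1.47.

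Fcgr1 and Fcgr2b were also the 2 members called higher in the other libraries, which is near the share of all genes called higher in blood and below it in marrow. In blood, Fcgr1 had 659 UMIs in classical monocyte-like cells against 0 in mature neutrophil-like cells. The lower limit of its log2 ratio was 6.39, and the ratio was 6.69 with 3 counts in place of 0. Fcgr2b was 24.0-fold higher (4.58, 3.98 to 5.26), against 39.9% of genes called higher and 7.65% lower (19.9% and 17.8% with median-of-ratios size factors). In marrow, Fcgr1 had 187 UMIs against 1 (log2 ratio 7.39, 4.89 to 12.70) and Fcgr2b was 4.54-fold higher (2.18, 1.82 to 2.56), where 50.4% of genes were called higher and 8.44% lower (27.5% and 21.2% with those size factors). With the size factors the marrow ratio of Fcgr2b was 0.85 and no longer called. Fcgr4 went the other way in marrow, 39.7-fold lower in classical monocyte-like cells (−5.31, −6.16 to −4.57), a ratio that was −2.63 (−2.90 to −2.37) when the unnamed marrow cluster led by Saa3 and Clec4a3 was counted with them. Fcgr3 was 1.51-fold lower in the monocyte-like cells of blood (−0.60, −0.69 to −0.50) and 2.08-fold lower in those of marrow (−1.06, −1.16 to −0.95), neither of them called, and the medians over all genes were 1.03 and 1.39. With the size factors these ratios were −1.62 and −2.39 and called. Fcgr4 in blood was −0.99 (−1.19 to −0.79), and −2.01 and called with the size factors. Fcer1g was 0.48 in blood and −0.19 in marrow, and with the size factors −0.55 in blood and −1.53 in marrow, where it was called lower.

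**Figure D2:**
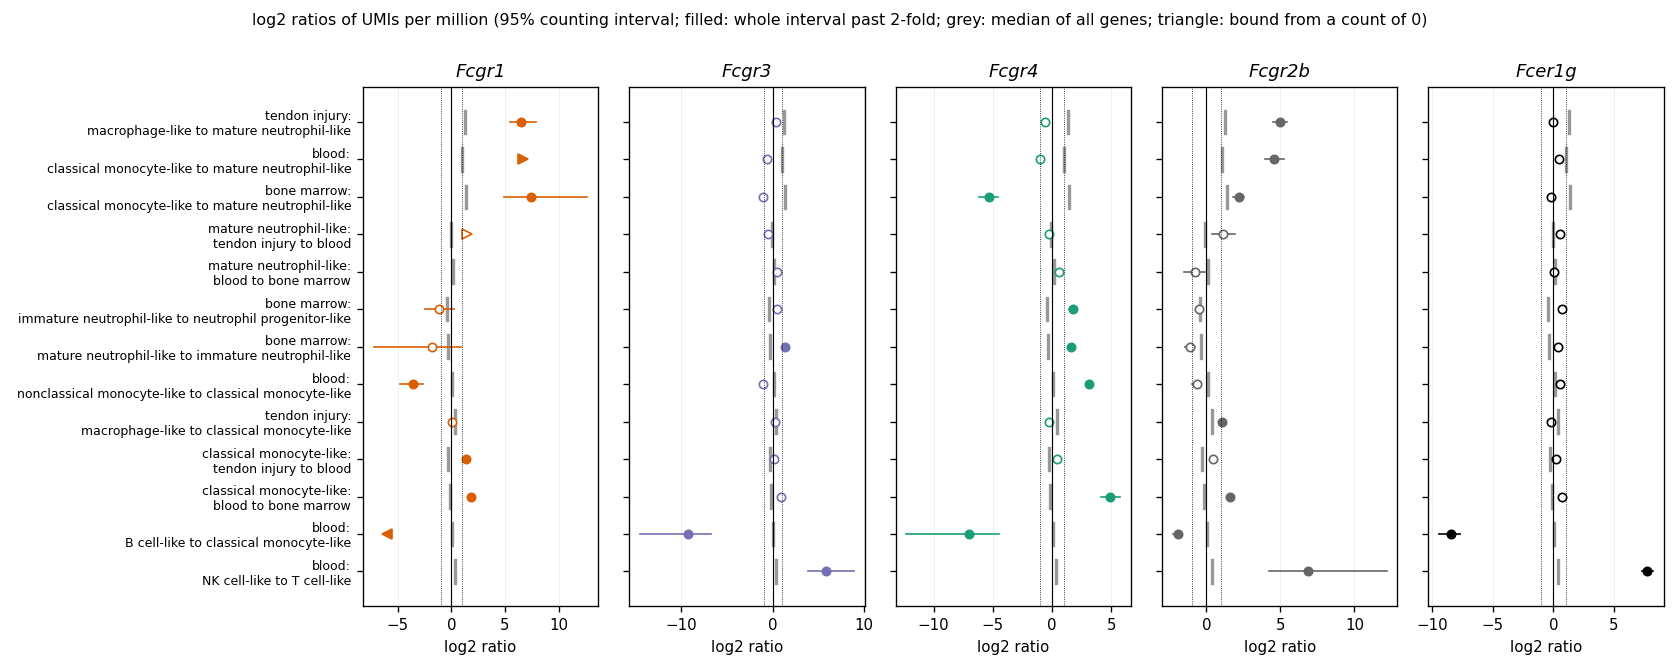
log2 ratios of CPM for the 5 members in 13 comparisons of 2 groups of cells, with 95% counting intervals, filled symbols where the whole interval lies past 2-fold (dotted lines), and grey ticks at the median of all genes. Fcgr1 and Fcgr2b are called higher in all 3 comparisons of mononuclear phagocytes with neutrophils, although the marrow ratio of Fcgr2b falls from 2.18 to 0.85 with median-of-ratios size factors. Fcgr3 (0.36, −0.60 and −1.06) and Fcer1g (−0.07, 0.48 and −0.19) are not called there in CPM, and with the size factors Fcgr3 in blood and marrow and Fcer1g in the tendon and marrow are called lower. Triangles are values with 3 counts in place of 0 UMIs in 1 group.

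Along the neutrophil classes of marrow, from 193 progenitor-like through 642 immature to 380 mature neutrophil-like cells, Fcgr4 was 9.57, 32.4 and 99.1 CPM and Fcgr3 was 111, 151 and 387. Both were lowest in the first and highest in the last class. Fcgr2b ran the other way, at 42.5, 29.6 and 13.8, although without the 20 most abundant genes the ratio of the first step turned from −0.52 to 0.03. The median over all genes was itself −0.44 in the first step and −0.33 in the second. The first fall of Fcgr2b was thus near that of all genes. Fcer1g was 773, 1300 and 1734, and Fcgr1 was at trace level with 11, 12 and 1 UMIs.

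Between immature and progenitor-like cells, Fcgr4 was the 1 member called (3.39-fold, log2 ratio 1.76, 1.41 to 2.13), while 4.46% of genes were called higher and 20.3% lower (9.54% and 11.3% with median-of-ratios size factors, and 10.6% and 10.3% without the 20 most abundant genes). Between mature and immature cells, Fcgr4 (3.06-fold, 1.61, 1.44 to 1.78) and Fcgr3 (2.56-fold, 1.36, 1.28 to 1.44) were called higher, with 7.71% of genes called higher and 18.3% lower (10.7% and 14.1% with the size factors). The ratio for Fcgr2b in that step was −1.10 (−1.47 to −0.75) and not called. With 50 rather than 100 leading genes in the naming, which left 423 immature cells, Fcgr4 was 1.12 and Fcgr3 was 0.99 and neither was called.

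Mature neutrophil-like cells were then compared between the sites. Fcgr1 had too few UMIs to be tested, and the other 4 members were. From marrow to blood no member was called, against 3.78% of genes higher and 2.88% lower (2.93% and 3.61% without the 20 most abundant genes), with Fcgr3 at 0.45 (0.36 to 0.55), Fcgr4 at 0.57 (0.38 to 0.76), Fcer1g at 0.05 (0.00 to 0.10, negative under both other scalings) and Fcgr2b at −0.78 (−1.54 to −0.08). From blood to tendon none was called either, where 10.3% of genes were called higher and 4.60% lower (8.64% and 6.79% without those genes). The tendon cells were shallower, at a median of 3480 UMIs against 8102. The parts of depth and of background from transcripts of other cells in these ratios were not tested. Fcgr3 was 375 CPM in the tendon against 530.3 in blood (−0.50, −0.62 to −0.38), Fcgr4 was 125 against 147 (−0.24, −0.46 to −0.02), Fcer1g was 2618 against 1800.1 (0.54, 0.48 to 0.60) and Fcgr2b was 17.7 against 8.02 (1.14, 0.35 to 1.96). In marrow, the mature neutrophil-like cluster led by Il1b and Steap4 had 454 CPM of Fcgr3 and 119 of Fcgr4, above the cluster led by Stfa2 and Gpr27 (354 and 88.8), with no member called and 1.76% of genes called higher and 0.967% lower. It lay below blood neutrophil-like cells, again with no call, where 0.700% of genes were called higher and 1.03% lower. The tendon neutrophil-like cells led by Irg1 and Stfa2l1 had 343 CPM of Fcgr3 and those led by Retnlg and Prok2 449, also without a call, against 2.86% of genes higher and 1.02% lower.

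**Figure D3:**
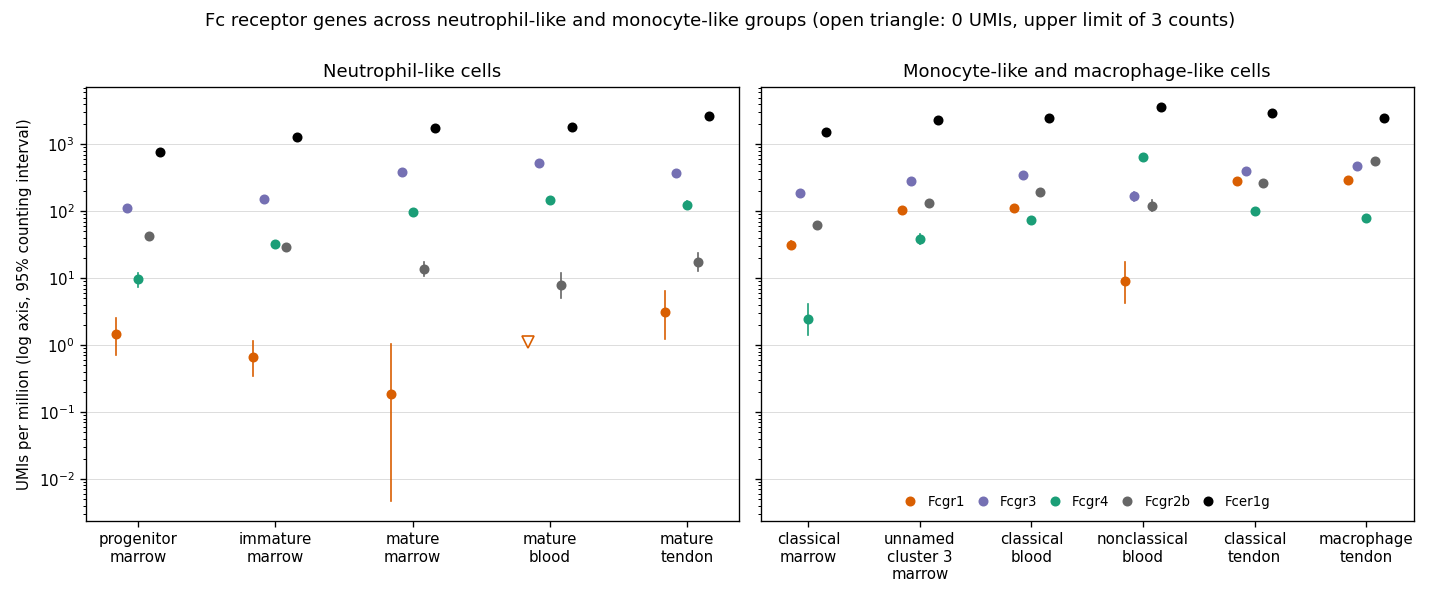
CPM (log axis) of the 5 members in neutrophil-like groups from marrow progenitors to the tendon (left) and in monocyte-like and macrophage-like groups (right), with 95% counting intervals. In marrow neutrophil-like cells Fcgr3 and Fcgr4 are highest in the mature class (387 and 99.1) and Fcgr2b is lowest there (13.8). The open triangle marks 0 UMIs of Fcgr1 in blood neutrophil-like cells.

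In blood monocytes, Fcgr1 and Fcgr4 marked opposite subsets. Nonclassical monocyte-like cells had 636 Fcgr4 CPM against 74.2 in classical ones (8.58-fold, log2 ratio 3.10, 2.92 to 3.28), and 9.22 Fcgr1 CPM against 113 (12.2-fold lower, −3.61, −4.75 to −2.68). The rule called 3.74% of genes higher and 3.16% lower, with a median over all genes of 0.11. Fcgr3 (−1.06, −1.30 to −0.83) and Fcgr2b (−0.66, −0.94 to −0.38) were lower without a call, and Fcer1g was 0.50 (0.45 to 0.56). Of 115 thinned nonclassical monocyte-like cells 42.6% had an Fcgr4 UMI (33.4 to 52.2), against 7.03% of 313 classical ones (4.46 to 10.4) and 0 of 665 T cell-like cells (upper bound 0.553%), while the unthinned shares were 93.1%, 53.7% and 0.149%, at median depths of 7526, 18623 and 8773 UMIs.

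Classical monocyte-like cells were then followed from marrow to blood to tendon. From marrow to blood, Fcgr4 was 29.7-fold (log2 ratio 4.89, 4.15 to 5.74), Fcgr1 3.62-fold (1.86, 1.62 to 2.10) and Fcgr2b 3.07-fold higher (1.62, 1.45 to 1.79), so that 3 of 5 members were called, against 4.90% of genes higher and 9.28% lower (6.71% and 7.45% with median-of-ratios size factors). Fcgr3 (0.91, 0.81 to 1.02) and Fcer1g (0.72, 0.68 to 0.76) were not called. This contrast depends on which marrow cells carry the name. An unnamed marrow cluster of 188 cells led by Saa3, Clec4a3, Clec4a1 and Apoe, in which markers of nonclassical monocytes and of macrophages tied, had 104 CPM of Fcgr1, 132 of Fcgr2b, 285 of Fcgr3, 39.2 of Fcgr4 and 2289 of Fcer1g. Blood classical monocyte-like cells differed from it by 0.12 (−0.07 to 0.31) for Fcgr1 and 0.92 (0.64 to 1.21) for Fcgr4, and no member was called, with 0.703% of genes called higher and 0.451% lower. When that cluster was counted with the marrow monocytes, Fcgr4 alone was called, at 2.21 (1.94 to 2.49), with Fcgr1 at 0.96 (0.80 to 1.13) and Fcgr2b at 1.13 (0.995 to 1.26).

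From blood to tendon, Fcgr1 was the 1 member called, 282 against 113 CPM (2.50-fold, log2 ratio 1.32, 1.20 to 1.45), where 6.73% of genes were called higher and 7.90% lower (8.05% and 4.94% with median-of-ratios size factors). The values for Fcgr2b (0.45, 0.35 to 0.56), Fcgr4 (0.42, 0.26 to 0.59), Fcer1g (0.23, 0.21 to 0.26) and Fcgr3 (0.17, 0.09 to 0.25) were above the median over all genes, −0.30. With 50 leading genes in the naming, which left the 392 tendon cells led by Ly6c2 and Plac8, the ratio for Fcgr1 was 0.88 and not called. Those cells had 207 CPM of Fcgr1 and 199 of Fcgr2b, and the other 469, led by Sirpb1c and Ms4a4c, had 345 and 316, a difference of 0.73 and 0.67 without a call, where 1.31% of genes were called higher and 1.19% lower. The 392 cells were named on 7 classical monocyte markers, with 5 nonclassical ones also among their leading genes. The name of the 469 cells rests on 3 markers.

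Within the tendon, macrophage-like and classical monocyte-like cells had nearly equal Fcgr1 (log2 ratio 0.03, −0.04 to 0.10, with either sign among the alternatives) and differed in Fcgr2b, 556 against 263 CPM (2.11-fold, 1.08, 1.02 to 1.14), where 9.48% of genes were called higher and 2.75% lower (7.09% and 3.72% with median-of-ratios size factors). Fcgr2b was the 1 member called, and its interval lay just past the limit: the ratio was between 0.88 and 1.39 over the alternatives, and the call was lost in 7 of them. Fcgr3 was 0.29, Fcer1g −0.24 and Fcgr4 −0.31, beside a median over all genes of 0.37.

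The macrophage-like cells of the tendon were not uniform. The cluster of 238 cells led by the interferon-stimulated genes Ifit2, Rsad2, Mx1 and Ifit3 had 459 CPM of Fcgr1 against 249 in the other macrophage-like cells (log2 ratio 0.88, 0.80 to 0.97), 140.3 of Fcgr4 against 66.3 (1.08, 0.92 to 1.24), 673 of Fcgr3 against 439 (0.62, 0.55 to 0.68), 717 of Fcgr2b against 520 (0.46, 0.40 to 0.53) and 2955 of Fcer1g against 2394 (0.30, 0.27 to 0.33). All 5 members were thus above the other cells, none of them called, against 2.98% of genes called higher and 2.34% lower and a median over all genes of −0.26. The 312 cells led by Cd209g, Cd209d and Cd163, scavenger and lectin receptors of resident macrophages, had the highest Fcgr2b, 806 against 471 CPM (0.77, 0.72 to 0.83), with less Fcgr1 (204 against 317) and less Fcgr4 (58.3 against 87.6). No member was called there, where 1.90% of genes were called higher and 2.62% lower. In the 306 cells led by Arg1, Ppbp and F7, Fcgr2b was 282 against 634 CPM (−1.17, −1.26 to −1.08), the 1 member called, against 2.71% of genes lower and 1.78% higher, and Fcgr1 was 303 against 284. The largest cluster, 533 cells led by Il10, Fcrls and Mrc1, had 460 CPM of Fcgr2b against 606 and 248 of Fcgr1 against 309, with no member called and 0.201% of genes called higher and 1.86% lower.

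**Figure D4:**
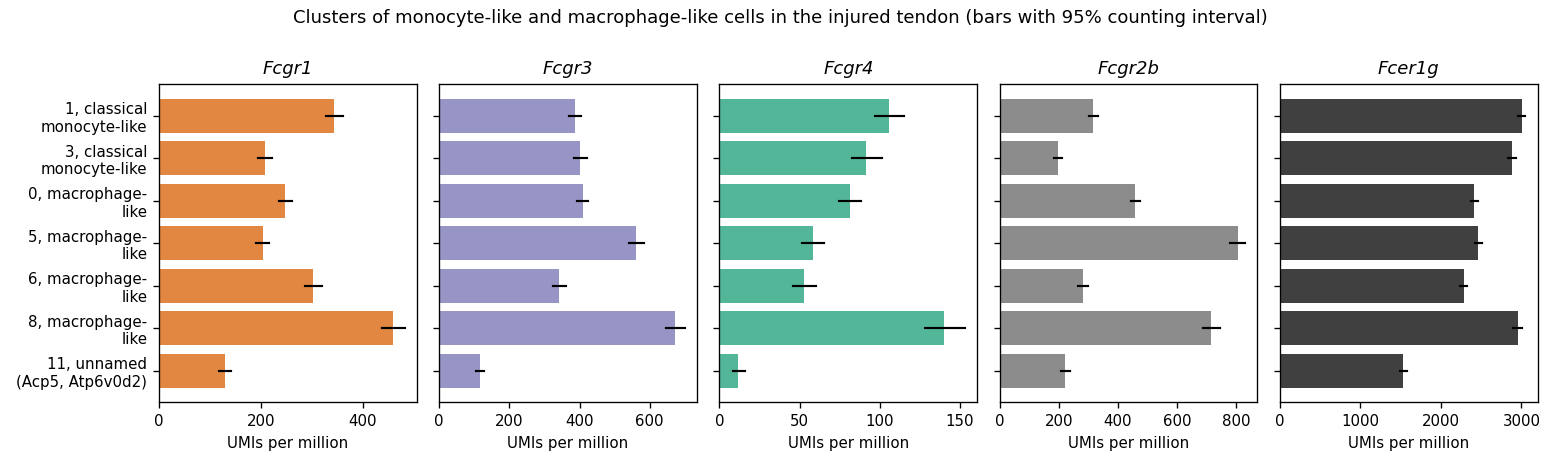
CPM of the 5 members in the clusters of monocyte-like and macrophage-like cells of the injured tendon, with 95% counting intervals as black lines and a separate linear axis for each gene. Cluster 8, led by Ifit2 and Rsad2, has the highest Fcgr1 (459), Fcgr3 (673) and Fcgr4 (140.3), and cluster 5, led by Cd209g and Cd163, has the highest Fcgr2b (806).

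Other mononuclear cells of the tendon carried the genes at lower levels. An unnamed cluster of 185 cells led by Acp5 and Atp6v0d2, genes of osteoclasts, had 130.0 CPM of Fcgr1, 223 of Fcgr2b, 117 of Fcgr3, 11.9 of Fcgr4 and 1533 of Fcer1g. Against macrophage-like cells 4 of the 5 members were called lower, by 1.15 for Fcgr1, 1.32 for Fcgr2b, 2.05 for Fcgr3 and 2.76 for Fcgr4 on the log2 scale, where 4.51% of genes were called lower and 8.16% higher. Dendritic cell-like cells, led by Ccr7 and Cd209a among others, were likewise lower in 4 members, with Fcgr3 at −3.37 (−3.71 to −3.05), Fcgr1 at −2.84 (−3.21 to −2.50), Fcgr4 at −1.83 (−2.34 to −1.37) and Fcgr2b at −1.27 (−1.42 to −1.12), against 7.94% of genes lower and 4.54% higher. Their Fcer1g was −0.46 (−0.51 to −0.40).

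The mix of activating and inhibitory transcripts was summarised as Fcgr1, Fcgr3 and Fcgr4 UMIs per Fcgr2b UMI. No correction for transcript length was made and how well each gene is captured is unknown, so the ratios compare cells rather than genes. Mature neutrophil-like cells stood at 84.4 in blood (55.6 to 135), 35.3 in marrow (28.0 to 45.1) and 28.5 in the tendon (20.8 to 40.0). The tendon value rests on 40 Fcgr2b UMIs in 565 cells. In the same library 36 were counted in 194 unnamed cells led by Des and Gm26917, at a median of 1458.5 UMIs. The 723 deeper mesenchymal-like cells had 107. Background from transcripts of other cells was not tested. Marrow immature neutrophil-like cells had 6.23, a class that pools unlike clusters. Its ratios ran from 3.11 in the cluster led by the histone genes Hist1h2bn and Hist1h3c to 14.7 in that led by Thbs1 and Chil5. Progenitor-like cells had 2.88. Classical monocyte-like cells had 2.95 in the tendon (2.82 to 3.09), 2.80 in blood (2.61 to 3.00) and 3.51 in marrow (3.13 to 3.95), and nonclassical ones 6.67 (5.50 to 8.16). Tendon macrophage-like cells had 1.53 (1.49 to 1.57), from 1.02 in the Cd209g and Cd163 cluster to 2.48 in the Arg1 cluster. Dendritic cell-like cells had 0.47 (0.40 to 0.57) and blood B cell-like cells 0.02, from 2 activating and 86 Fcgr2b UMIs.

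**Figure D5:**
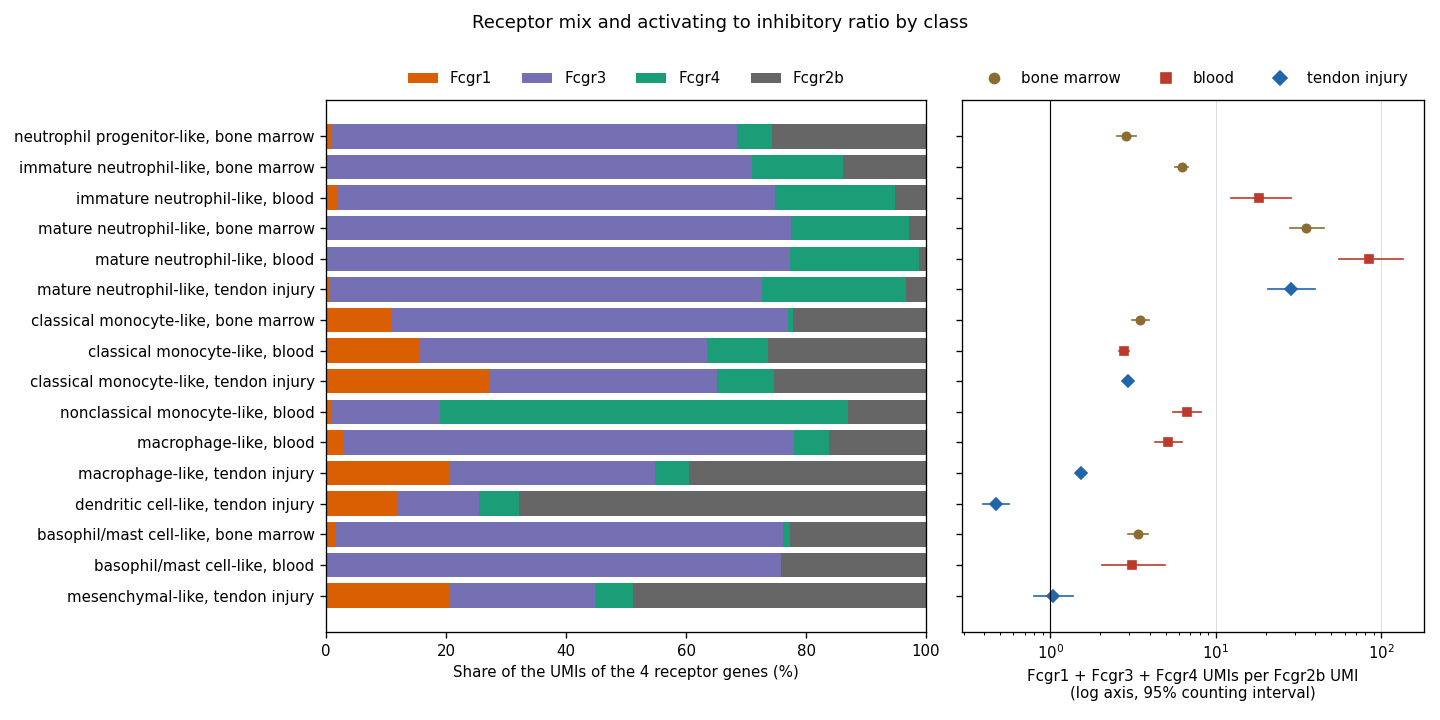
Left, share of each of the 4 receptor genes in their summed UMIs for groups with at least 100 such UMIs; right, activating UMIs per Fcgr2b UMI (log axis) with 95% counting intervals. Mature neutrophil-like cells are almost wholly Fcgr3 and Fcgr4 with ratios from 28.5 to 84.4, tendon macrophage-like cells sit at 1.53, and tendon dendritic cell-like cells fall below 1 at 0.47.

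The receptor mix differed in kind as well as in ratio. Of the receptor UMIs of blood mature neutrophil-like cells 77.4% were Fcgr3 and 21.4% Fcgr4, and in the tendon the shares were 72.1% and 23.9%. In blood nonclassical monocyte-like cells 68.0% were Fcgr4. In tendon macrophage-like cells 39.5% were Fcgr2b, 34.3% Fcgr3, 20.5% Fcgr1 and 5.69% Fcgr4. Per activating receptor UMI there were 2.94 Fcer1g UMIs in tendon macrophage-like, 2.66 in blood mature neutrophil-like, 5.21 in tendon mature neutrophil-like and 16.7 in tendon dendritic cell-like cells. Blood NK cell-like cells had 73.2.

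In lymphoid cells of blood, NK cell-like cells were compared with T cell-like cells. Fcer1g was 214-fold higher (log2 ratio 7.74, 7.28 to 8.24), Fcgr2b had 33 UMIs against 1 (6.83, 4.25 to 12.18) and Fcgr3, which encodes CD16 of NK cells, 32 against 2 (5.79, 3.82 to 8.89). These were the 3 members with enough UMIs to be tested, and all 3 were called, where 6.40% of genes were called higher and 1.54% lower (4.31% and 3.03% with median-of-ratios size factors). Most of these UMIs, 2282 of 2416 for Fcer1g, 31 of 33 for Fcgr2b and 28 of 32 for Fcgr3, lay in 138 cells led by Klra8, Klra4, Gzma and Ncr1. These had 2466 Fcer1g CPM against 171 in the 76 cells led by Cxcr3 and Gzmm (3.85, 3.60 to 4.12), and Fcgr2b (3.72) and Fcgr3 (2.57) were also called higher, against 3.05% of genes higher and 1.68% lower. The name of the 76 cells rests on 3 markers, none of them among their 10 leading genes. At a resolution of 0.5, and with 50 leading genes in the naming, the blood NK cell-like class held 138 cells rather than 214. In B cell-like cells all 5 members were called lower than in classical monocyte-like cells, where 14.2% of genes were called lower and 8.96% higher. Fcgr2b was the nearest, 3.83-fold lower (−1.94, −2.27 to −1.62).

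Fcgr2b was also counted in Schwann cell-like cells of the tendon, at 57.2 CPM (41.7 to 76.5). Of 60 thinned cells 10.0% had a UMI (3.76 to 20.5), against 0.415% of mesenchymal-like cells, and 20% had one before thinning, at a median of 8073.5 UMIs.

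Detection of the members in the same thinned cell was described within classes. Of 306 tendon macrophage-like cells with an Fcgr1 UMI 15.03% had an Fcgr4 UMI, against 6.02% of 1080 without one. In the other direction, 41.4% of the 111 cells with an Fcgr4 UMI had an Fcgr1 UMI, against 20.4% of 1275. Fcgr2b UMIs were found in 39.2% of the macrophage-like cells with any activating receptor UMI and in 37.6% of those without. In tendon dendritic cell-like cells these shares were 55.6% of 18 cells and 19.6% of 143. The order was reversed in blood nonclassical monocyte-like cells (5.56% of 54 and 8.20% of 61) and in mature neutrophil-like cells of blood and marrow. In tendon classical monocyte-like cells the Fcgr4 share was 9.79% with an Fcgr1 UMI and 7.80% without. The macrophage-like class pools clusters that differ in both Fcgr1 and Fcgr4. The cluster led by Ifit2 had 459 CPM of Fcgr1 against 249 in the other macrophage-like cells, and 140.3 of Fcgr4 against 66.3. Detection together within single clusters was not examined, so the part of the cluster mix in these shares was not tested. The cells of a class share 1 library, and no test was made.

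Over the 26 groups, the levels of the members went together to different degrees (Pearson's r of log2 of CPM plus 1, as a description of groups that share 3 libraries). Fcgr3 was closest to Fcer1g (0.85) and to Fcgr4 (0.76), and Fcgr1 to Fcgr2b (0.72). The lowest value was 0.44, between Fcgr1 and Fcer1g. Among 12345 genes, the pattern most like that of Fcer1g was that of Tyrobp (0.97), which encodes DAP12, the other signalling adaptor of myeloid and NK cells, followed by Myo1f, Arpc2, Apobr and Efhd2. Fcgr3 was most like Itgam (0.93), the integrin chain CD11b, then Igsf6, Lilrb4a, Cd300lb and Rab32. Fcgr1 was most like Aif1 (0.94), then Trem2, Ms4a6d, Cysltr1 and Msr1. Fcgr4 was most like Cd300ld (0.96), then 1600010M07Rik, Tlr13, Rasgrp4 and Map3k15. Fcgr2b had no close partner, with Nlrc4 at 0.82, then Atp6v0b, Capza2, Scamp2 and Adap1.

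The signalling partners of the receptors were read from a list of 58 genes, of which 52 were listed in the files. The IgG heavy chain genes, the ligands, were among those not found and were not analysed here. In tendon macrophage-like against mature neutrophil-like cells, 41 partners had enough UMIs, and 11 were called higher and 11 lower, where 34.8% of all genes were called higher and 7.83% lower (12.8% and 16.8% with median-of-ratios size factors). The median log2 ratio was −0.26 beside 1.29 over all genes. The largest in each role were Fcrls (8.09), an Fc receptor-like gene, the adaptor Lat2 (3.45) and the ubiquitin ligase Cblb (5.45) among those higher. Lower were the adaptor Hcst (−2.16), the lectin Clec4e (−4.15), which signals through the γ chain, the Src-family kinase Fgr (−2.45), the GTPase Rac2 (−2.37) and the inhibitory receptor Siglece (−4.83).

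The list holds 6 other receptors that pair with the γ chain. From blood to tendon 4 of them had enough UMIs, and 3 were called higher and 1 was not called, in mature neutrophil-like and in classical monocyte-like cells alike. In mature neutrophil-like cells 38 partners had enough UMIs, 3 were called higher and 3 lower, against 10.3% of all genes higher and 4.60% lower. The 3 that were higher were Clec4n, at 140.5 against 6.20 CPM (log2 ratio 4.50), Clec4e (2.46) and Clec4d (1.89), the genes of Dectin-2, Mincle and their relative MCL. The inhibitory lectin Clec12a (−2.02) and the kinase subunit Pik3cd (−1.75) were lower, and Trim21, a cytosolic antibody receptor, had 0 UMIs in the tendon against 24. In classical monocyte-like cells 5 of 41 were called higher and 4 lower, against 6.73% and 7.90% of all genes, with Clec4d at 469 against 41.8 CPM (3.49), Clec4n at 3.13, Clec4e at 2.73, the adaptor Dok2 at 2.34, Trim21 at −2.38, Fgr at −1.36 and the phosphatase gene Ptpn6 at −1.43. Between nonclassical and classical monocyte-like cells of blood 4 of 40 were higher and 4 lower, against 3.74% and 3.16% of all genes, among them the inhibitory receptor Lair1 (2.04), the neonatal Fc receptor Fcgrt (1.61), the inhibitory lectin Clec4a2 (−3.22) and Pira2 (−2.66), a receptor that pairs with the γ chain. From immature to mature neutrophil-like cells of marrow 11 of 39 were higher and 0 lower, against 7.71% and 18.3% of all genes (10.7% and 14.1% with the size factors). They were led by Clec4d (5.82) and Lat2 (4.35), with Tyrobp at 1.18, and the median of the list was 0.55 and that of all genes −0.33.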

How the data were processed

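For each of the 3 libraries the deposited matrix holds raw UMI counts, one value for a gene in a cell, which the authors produced with Cell Ranger (version 5.0.1 in the headers of the files) on mm10, the build in the submitters' processing notes. How strand was handled is not stated in these sources. Cells with under 200 genes, or with over 20% of UMIs from mitochondria, were dropped. Each cell was scored against simulated doublets, and the highest-scoring cells, 0.8% per 1000 cells, were removed in each library. Each library was clustered by itself (2000 variable features without the members and their partners, 30 components, 20 neighbours, Leiden at a resolution of 1) with scikit-learn 1.9.0, leidenalg 0.10.2 and igraph 0.11.9. Clusters were named from at least 3 fixed markers among 100 leading genes, with ties left unnamed, so names may differ from the study's. Counts were summed per group. Poisson, binomial and ratio intervals (95%) came from scipy 1.17.1 and cover counting error only. The ratio intervals alone were checked, on simulated Poisson counts. That check shares the assumption of the intervals and leaves out unequal counts between cells. Genes with at least 20 UMIs in both groups together were tested for the 2-fold rule, and a count of 0 was read as up to 3 counts. Cells under 1000 UMIs were left out of thinned shares. The text names the members, the 5 genes most like each (among genes with at least 200 UMIs), and, per role, the partner with the largest called ratio in each direction, with further partners of the 3 monocyte and neutrophil comparisons named after their values were seen. The members, lists, and comparisons were chosen with earlier results of these data known, and the comparisons of single clusters and the promoter patterns were added after seeing the data. A comparison of single clusters in the tendon is not reported here.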

Additional observations from a re-analysis of the deposited data

Results flagged for a closer look

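Contrasts whose sign differed between 2 groups were looked for among 25 pairs, taking the members in monocyte-like and neutrophil-like cells and in the 3 libraries. In 5 of them the whole counting intervals lay on opposite sides of 0, and with 1 library per site none of the differences was tested. From blood to tendon, Fcgr3 was −0.50 (log2 ratio) in mature neutrophil-like cells and 0.17 in classical monocyte-like cells, a difference of −0.67, and Fcgr4 was −0.24 and 0.42, a difference of −0.66. From marrow to blood, Fcgr2b was −0.78 in neutrophil-like cells and 1.62 in monocyte-like cells, a difference of −2.40. Fcer1g in classical monocyte-like against mature neutrophil-like cells was 0.48 in blood and −0.19 in marrow, a difference of 0.67, and 0.17 in the tendon, a difference of 0.36 from marrow. The opposite signs held in 2 of the 5, Fcgr3 from blood to tendon and Fcgr2b from marrow to blood, when UMIs were scaled without the 20 most abundant genes and with median-of-ratios size factors. The sign of Fcer1g in marrow also turned, to 0.06, when the unnamed marrow cluster led by Saa3 and Clec4a3 was counted with the monocytes.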

How the results depend on the processing

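There were 16 other settings and 1 added after seeing the data. Those that changed only the minimum of UMIs or the depth of thinning gave no ratio of members. The rest gave 711 log2 ratios of members over the 13 comparisons, at most 12 for any ratio. Of these, 521 stayed inside the reported counting interval and 190 did not. The 25 ratios called over these 13 comparisons kept their sign in each alternative that gave a value. Of 350 repeated counts of called members and summaries, 320 stayed the same. For a count this meant equal or within 1.5 times, so that 3 and 2 members count as the same. Many of the counts, mostly those of members called lower, were 0 as reported, and a 0 that stays 0 says little. For the difference in activating to inhibitory ratio it meant inside the counting interval. Without the 20 most abundant genes, 2 members were called lower in blood monocyte-like against neutrophil-like cells (11.6% of all genes). In marrow 2 were called lower (14.6%), and 2 were higher in immature against progenitor-like cells (10.6%). With median-of-ratios size factors the corresponding numbers were 2 lower in the tendon (16.8% of all genes) and 2 lower in blood (17.8%). Marrow had 1 higher and 3 lower (27.5% and 21.2%), and immature cells had 2 higher (9.54%). With the size factors 2 of 5 members were highest in the same group, and 0 were higher in tendon macrophage-like against monocyte-like cells (7.09%). That last comparison also gave 0 calls with the stricter cell filter, with no doublets removed, at both other resolutions, with members among the variable features, and with libraries clustered together. With 2 times the doublets removed, immature against progenitor-like cells had 2 higher and 1 lower, and mature against immature cells 1 higher. The finer resolution gave 1 member higher in tendon macrophage-like against neutrophil-like cells, 2 higher in tendon against blood neutrophil-like cells and 2 higher in immature cells, and lowered the log2 difference in activating to inhibitory ratio between tendon neutrophil-like and macrophage-like cells from 4.22 to 1.18, as 160 macrophage-like cells had joined the neutrophil name. Libraries clustered together gave 1 lower in immature cells and no value for 6 comparisons. With 50 leading genes there were 0 higher in mature against immature cells, 0 higher in tendon against blood monocyte-like cells and no value for 2 comparisons. Naming cell by cell gave a log2 difference of 3.73 and 3 of 5 members highest in the same group. A minimum of 100 UMIs left 1 member called in NK cell-like cells, as fewer genes were tested. Counting the unnamed marrow cluster with the monocytes gave 1 member higher in blood. Apart from the changes of scaling, the share of all genes called under a setting is not given here, so those counts stand without a background. Apart from the renamed cells and the smaller number of genes tested, the cause of these changes was not tested. Equal weights per cell have no counting interval and gave no calls. Comparisons of single clusters were not repeated. No paired analysis was possible because each site has 1 library, and for the same reason no replicate could be left out.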

Other observations

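Cells left without a class also carried the genes. In blood, 42 cells led by Hist1h3c, Nid1, Zbtb32 and Bhlhe41 had 73.1 CPM of Fcgr2b (54.8 to 95.6), 45.5 of Fcgr3 (31.3 to 63.9), 12.4 of Fcgr1 and 149 of Fcer1g. In the tendon, 70 cells led by Gzma, Gzmb, Nkg7 and Cpa3 had 913 of Fcer1g (809 to 1028), 56.5 of Fcgr3, 29.9 of Fcgr2b and no UMI of Fcgr1 or Fcgr4, which allows up to 9.96 CPM. The 18 plasmacytoid dendritic cell-like cells of the tendon, too few for a group, had 1167 of Fcer1g (982 to 1377), and the 194 cells led by Des and Gm26917, at a median of 1458.5 UMIs, had 218 of Fcer1g and 45.0 of Fcgr3.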
